A study of Mus musculus with 7 samples.

Results

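The resting B cell transcriptome of wild type C57Bl/6 mice was described from the 3 libraries labelled B6 WT, out of 7 libraries in the series. The cells were splenocytes left after magnetic depletion of CD43, a sialomucin that most naive B cells lack and T cells, myeloid cells and plasma cells carry. The labels name no further allele or treatment for these libraries, do not give the age of the mice, and do not say whether each library comes from its own animal, so the spread given here may be technical. Total RNA was sequenced after Nextera library preparation. The other 4 libraries, from mice with a conditional knockout of Foxp1, were not used. Members were the rows with a status of OK in all 3 wild type libraries, 23520 of 23845 rows, of which 20506 were protein-coding genes by the RefSeq annotation. Levels are FPKM, in which fragments are divided by transcript length and by the fragments mapped in the library, so they can be set side by side between genes, and a mean is given with its SD over libraries (n = 3). Where 3 values follow each other, they stand for libraries 1, 2 and 3. With 3 libraries of 1 group an exact two-sided sign test cannot go below p = 0.25, so levels are given as descriptions, and genes are said to be ordered only where their ranges over the 3 libraries do not overlap.

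Resting B cells circulate between blood and lymphoid follicles, divide rarely, and wait for antigen to bind the B cell receptor. The receptor signals through the CD79 chains to the kinases Lyn, Syk and Btk, and the cells take up antigen and present its peptides to T cells on MHC class II. Pax5 and Ebf1 hold the B cell programme, and KLF and FOXO factors are known for keeping lymphocytes quiescent.

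MHC class II genes stood among the most abundant transcripts. A stretch held by 4 of the 10 matched promoters of their pathway is shown first because the levels below return to it. Class II promoters are known for an X box, bound by the RFX complex, and a Y box, bound by NF-Y, at a fixed spacing, on which the coactivator CIITA acts. In 4 promoters of the family the letters GCAAC of the X box stood 24 or 25 bases before the letters CTGATTGG of the Y box. They are printed 5′ to 3′ on the strand of the gene, from RefSeq promoters of GRCm38.p6, with both sets of letters in capitals.
H2-Aa: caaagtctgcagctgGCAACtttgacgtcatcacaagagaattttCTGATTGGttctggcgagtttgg
H2-Eb1: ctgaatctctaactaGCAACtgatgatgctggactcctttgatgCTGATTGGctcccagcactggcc
H2-Oa: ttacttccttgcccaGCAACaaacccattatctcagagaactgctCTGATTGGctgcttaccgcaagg
H2-Eb2: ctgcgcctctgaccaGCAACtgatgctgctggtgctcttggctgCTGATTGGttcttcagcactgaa
H2-Aa is shown at chr17:34287852-34287919 on the minus strand, and on the plus strand H2-Eb1 at chr17:34305761-34305827, H2-Oa at chr17:34092288-34092355 and H2-Eb2 at chr17:34325528-34325594. All 4 stretches lie upstream of the annotated start site. In H2-Aa the Y box letters began 51 bases before the start and in H2-Eb2 they began 103 bases before it. The search allowed 10 to 30 bases between the boxes but any place in the promoter. The spread of the distance to the start is therefore not compared with that of the spacing.

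A gene was called expressed at 1 FPKM or more in all 3 libraries and silent under 0.1 FPKM in all 3. By that rule 8747 of 20506 protein-coding genes (42.7%) were expressed, 8538 (41.6%) were silent and 3221 (15.7%) lay between. The levels fell into a broad low shoulder and a peak near 10 FPKM. Judged by the commonest low value among genes with 1 transcript of 1500 bases or longer, 1 fragment was worth about 0.0184, 0.0214 and 0.0203 FPKM times kilobase, which differs little between libraries. At that depth 0.1 FPKM over a 2 kb transcript stands for about 10.8, 9.36 and 9.83 fragments, so a silent gene here is one with few or no fragments and not one shown to be off. This estimate rests on GENCODE M21 transcript lengths and covers no counting error per gene.

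**Figure D1:**
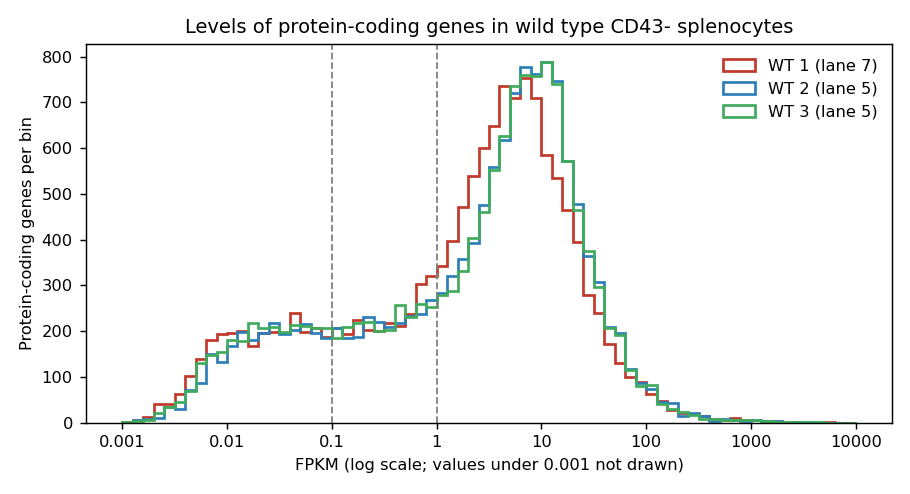
Number of protein-coding genes (vertical axis) by level in FPKM on a log scale (horizontal axis) in each of the 3 wild type libraries. Dashed lines stand at 0.1 and 1 FPKM. Libraries 2 and 3 lie on each other, and the peak of library 1 sits at a lower level.

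A small number of genes carried much of the signal. The 48 most abundant protein-coding genes held 25% of the summed protein-coding FPKM and 476 genes held 50%. Only 18 genes reached a mean of 1000 FPKM and 224 more lay between 100 and 1000 FPKM, while 3595 lay between 10 and 100 FPKM and 5540 between 1 and 10 FPKM. The 25 most abundant genes made up 21.1%, 18.6% and 18.3% of the protein-coding sum in libraries 1, 2 and 3. Small RNA genes, led by the RNA subunits of the RNase MRP and RNase P enzymes, Rmrp and Rpph1, held 58.4%, 55.2% and 48.1% of the FPKM summed over all rows. FPKM divides by length, so this is not a share of fragments. Several such genes lie inside abundant protein genes, as Snord15b does within Rps3 and Snord16a within Rpl4. Host and guest have values of their own, but the sources used here do not state how reads in the overlap were counted.

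The preparation carried its defining B cell markers: 10 of 10 were expressed, against 42.7% of all protein-coding genes, and their summed level was 2219, 2559.8 and 2636 FPKM. Markers of T cells summed to 15.2, 24.5 and 27.7 FPKM, NK cells to 14.8, 15.5 and 17.2 FPKM, dendritic cells to 12.1, 21.0 and 21.6 FPKM, neutrophils to 33.1, 40.8 and 28.1 FPKM, and platelets to 38.2, 24.5 and 20.8 FPKM. Those of plasma cells, with 5 of 7 expressed, summed to 79.5, 105.7 and 100.1 FPKM, of which Irf4, also a factor of other B cells, held 36.5, 30.6 and 30.6 FPKM. None of the members of these lists was under 0.1 FPKM in all 3 libraries. Monocyte and macrophage markers summed to 220.8, 117 and 134 FPKM, of which Lyz2, lysozyme, held 97.3, 76.1 and 105 FPKM. Erythroid markers summed to 10486, 1618 and 1095 FPKM. Expressed members were 3 of 9 for T cells, 3 of 8 for NK cells and 2 of 8 for neutrophils. They were 4 of 7 for dendritic cells, 5 of 6 for platelets, 6 of 9 for macrophages and 7 of 10 for erythroid cells. Being expressed by this rule therefore does not by itself set the B cell markers apart. Library 1 had the highest sum of the 3 for erythroid, macrophage and platelet markers. It had the lowest for B, T, NK, dendritic and plasma cell markers. It was also the lowest for 7126 of 9377 genes with a mean of at least 1 FPKM, so being lowest there was shared by most genes. In bulk samples more cells of a type and more RNA per cell cannot be told apart. Spn, which encodes CD43, stood at 4.83 ± 1.41 FPKM.

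Of the 25 most abundant protein-coding genes, 10 belong to translation, 4 to MHC class II, 3 to the actin cytoskeleton, 2 are histones and 2 are globins. Cd74 (chromosome 18, 60803849 to 60812652), the invariant chain that guards the class II groove, had 2537, 4631 and 4707 FPKM. Tmsb4x (chromosome X, 167207094 to 167209218), thymosin beta 4, which binds actin monomers, had 3920.1, 3344 and 3359.8 FPKM. Actb (chromosome 5, 142903116 to 142906724), beta actin, had 2067, 3024 and 3136 FPKM. Library 1 was lowest for Cd74 and Actb and highest for Tmsb4x, and the ranges of Cd74 and Tmsb4x overlapped, so these 2 are not ordered. Hbb-b1 (chromosome 7, 103812528 to 103813923), adult beta globin of red cells, had 5888, 917 and 531 FPKM, and library 1 stood more than 6 times above library 2.

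Among the translation genes the smallest ribosomal protein gene Rpl41 averaged 1867 ± 163 FPKM and the elongation factor gene Eef1a1 1646 ± 91.6 FPKM, and their ranges overlapped with each other. Rps9, Rpl8, Rplp1, Rps15, Rps20 and Rps3 averaged 736 to 1345 FPKM, and Gnb2l1, the ribosomal scaffold RACK1, 1141 ± 81.6 FPKM. Among B cell surface genes of this group, Cd52, a lymphocyte surface glycopeptide, had 1332, 1169 and 1375 FPKM, Cd79b 1051, 1141 and 1083 FPKM, and Ly6d, a marker of the B lineage, 890.2, 869 and 962 FPKM. Each of these 3 differed by at most 1.18 times between its highest and lowest library, where the median over genes with a mean of at least 1 FPKM was 1.44 times.

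**Figure D2:**
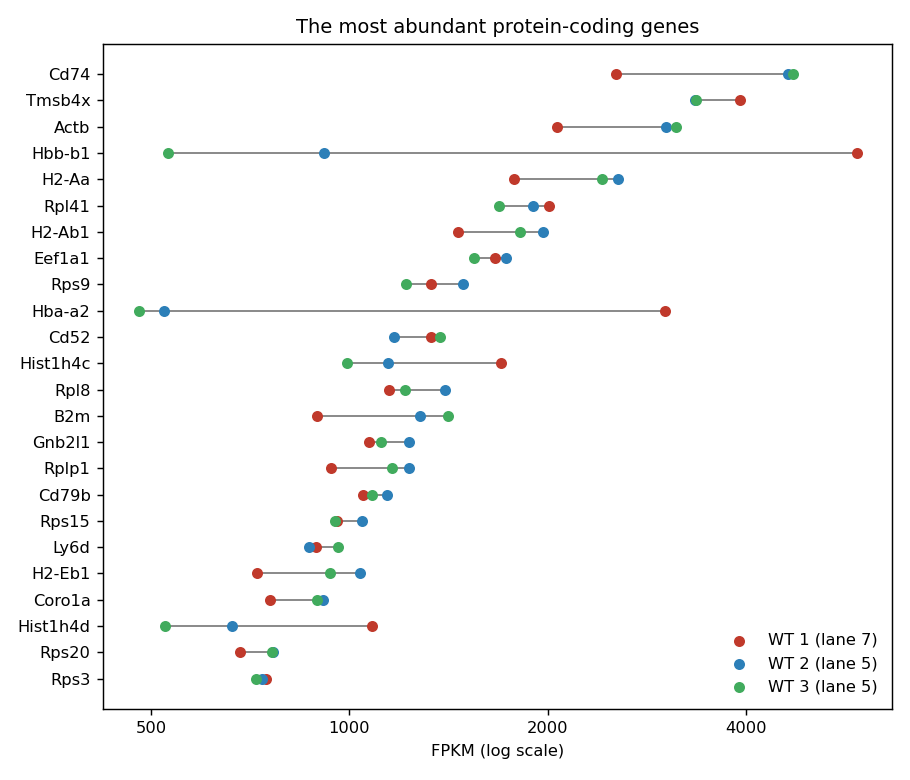
24 of the 25 protein-coding genes of highest mean FPKM, from top to bottom, with 1 point for each library on a log axis and a line from the lowest to the highest. The globins Hbb-b1 and Hba-a2 and the histones Hist1h4c and Hist1h4d have their highest point in library 1, whereas Cd79b, Ly6d and Rps3 vary little.

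The 48 gene families and pathways looked at are not all described below. Of their 566 members with a row, 340 (60.1%) were expressed and 112 (19.8%) were silent, beside 42.7% and 41.6% of all protein-coding genes. The families were picked with B cells in view, so the higher share says nothing particular to them. Of 295 pairs of neighbours in the order of expressed members, 105 (35.6%) had ranges that did not overlap. In 9 of 47 families with at least 4 members a single gene carried 80% or more of the family's summed FPKM, as a mean over libraries. The GATA factors are among the 9, with Gata1 at 98.4%, 79.5% and 70.0%, although no GATA gene was expressed.

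Antigen receptor components spanned a wide range. The signalling chain gene Cd79b (chromosome 11, 106311341 to 106314529) was above its partner Cd79a in every library, by 4.60 to 6.86 times, with Cd79a at 153, 209 and 236 FPKM. Of the coreceptor genes, Cd81, a tetraspanin, stood at 95.2 ± 14.8 FPKM and Cr2, complement receptor CD21, at 26.5, 96.3 and 108 FPKM. Cr2 was low in library 1. Among inhibitory receptors, Cd72 stood at 103 ± 9.07 FPKM, Cd22 at 98.2 ± 27.8 FPKM and the Fc receptor gene Fcgr2b at 29.7 ± 4.07 FPKM. Of the 13 immunoglobulin constant and joining chain genes looked for, only Igj, the joining chain, had a row, at 14.3, 32.6 and 26.04 FPKM, so immunoglobulin chains were not analysed here.

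Kinases of the receptor pathway differed in level. All 8 Src family kinases were above the silent limit and 6 were expressed. Blk, a B cell kinase, had 104, 113 and 109.8 FPKM and Lyn, which phosphorylates the CD79 chains, 82.2, 104 and 107 FPKM. Their ranges overlapped. Lck, the kinase of T cell receptors that some B cells also carry, had 10.5, 12.9 and 12.1 FPKM, above Fyn at 7.55, 9.86 and 10.3 FPKM, and Src itself had 0.363 ± 0.0873 FPKM. Among Tec and Syk kinases, Syk had 67.04, 128 and 123 FPKM, clear of Btk with 24.6, 37.2 and 36.9 FPKM and Tec with 17.05, 31.3 and 35.5 FPKM, which overlapped, while the T cell kinases Zap70 and Txk averaged 0.906 FPKM and 0.553 FPKM and Bmx was silent.

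Of 24 adaptors and second messenger genes, 19 were expressed. The B cell scaffold gene Bank1 had 108, 124 and 129 FPKM and Grap, a GRB2-like adaptor, 50.4, 117 and 116 FPKM, with overlapping ranges. Blnk, which couples Syk to phospholipase C, stood at 37.1, 79.5 and 76.7 FPKM, and Plcg2, that phospholipase, at 43.4, 58.2 and 61.1 FPKM, which overlapped too. Of the genes that link the receptor to NF-kB, Bcl10 had 47.6 ± 2.35 FPKM and Malt1 40.6 ± 12.8 FPKM, and Card10 and Card14 were silent. The PI3K catalytic subunit of lymphocytes, Pik3cd, had 23.2, 38.4 and 38.3 FPKM, above Pik3cg at 8.98, 12.8 and 13.7 FPKM and Pik3ca at 8.49, 12.9 and 13.5 FPKM with no overlap, and Pik3cb was lowest at 1.35 ± 0.0482 FPKM. Prkcb, the kinase C isoform of B cell receptor signalling, and Prkcd had overlapping ranges (47.4 ± 11.5 FPKM and 45.5 ± 7.33 FPKM), and the T cell isoform Prkcq had 0.703 ± 0.350 FPKM. Of 13 genes of NFAT and calcium entry, 11 were expressed, with Nfatc3 at 20.8 ± 3.81 FPKM, Nfatc1 at 14.4 ± 5.24 FPKM and Nfatc2 at 1.14 ± 0.574 FPKM. Nfatc4 was silent.

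All 13 members of the MHC class II pathway were expressed. After Cd74, the chains of the classical molecules, H2-Aa, H2-Ab1 and H2-Eb1, had 1777, 2562 and 2421 FPKM, 1463, 1968 and 1819 FPKM and 724, 1039 and 935 FPKM. H2-Aa and H2-Ab1 overlapped and both lay above H2-Eb1. The protease gene Ctss, which trims the invariant chain, had 324 ± 39.99 FPKM, and Ifi30, a thiol reductase of the endosome, 154 ± 15.6 FPKM. The peptide editors H2-DMa, H2-DMb1 and H2-DMb2 averaged 119 FPKM, 48.4 FPKM and 147 FPKM, with H2-DMb2 above H2-DMb1 in every library. H2-Ob and H2-Oa, which form the B cell modulator of the DM editor, had 220.3 ± 22.8 FPKM and 131 ± 27.5 FPKM, without overlap. The DM beta chain genes are paralogs, so reads may be split between them and their values are uncertain. Ciita, the coactivator of the whole set, had 24.3, 53.8 and 59.6 FPKM, low in library 1.

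Both boxes at a spacing of 10 to 30 bases, searched on both strands, occurred in 18 of the 15671 promoters of 300 bases (250 before to 50 after the start) that matched a gene with its start within 1000 bases, a share of 0.115%. They occurred in 4 of 10 promoters of the class II pathway, those printed above. The letters and the spacing were chosen after these promoters had been read, so the count is a description. Of the 18 genes, the 4 class II genes had the highest mean levels, from 2254 FPKM for H2-Aa to 39.7 FPKM for H2-Eb2, and the next was Cwc15 at 37.6, 35.2 and 36.6 FPKM, overlapping with H2-Eb2 at 26.9, 44.6 and 47.6 FPKM. The same letters stood before genes whose levels differ by far more than the spread between libraries. The Y box letters alone, CTGATTGG, stood in 5.21% of all promoters. No promoter of H2-Ab1, Cd74 or Ciita was matched.

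Class I presentation was as broad. Of 12 genes 11 were expressed, with B2m, the common light chain, at 895, 1279 and 1413 FPKM, the heavy chains H2-K1 and H2-D1 at 611 ± 162 FPKM and 495 ± 95.7 FPKM, and Cd1d2 between the limits at 0.199 ± 0.156 FPKM. The classical heavy chains are near-identical to other class I genes, and their values are uncertain. The immunoproteasome subunit gene Psmb8 had 109.9, 174 and 173 FPKM, the highest mean of 19 proteasome core genes, of which 17 were expressed and Psmb11, the thymic subunit, was silent. Psmb8 was not separated from Psmb4 at 125, 138 and 125 FPKM. The peptide transporter genes Tap1 and Tap2 had 54.5 ± 17.6 FPKM and 31.1 ± 8.71 FPKM. Nlrc5, the class I coactivator, had 6.82 ± 3.26 FPKM, below Ciita in every library.

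Receptors that guide B cells to follicles were led by chemokine receptors, of which 10 of 21 were expressed. Cxcr4, which holds cells in bone marrow and germinal centre dark zones, had 219.7, 119.7 and 108 FPKM, Ccr7, the receptor of the T zone, 149.9, 85.9 and 78.4 FPKM, and Cxcr5, the receptor of the follicle, 34.9, 117 and 120.3 FPKM. Library 1 was the highest for Cxcr4 and Ccr7 and the lowest for Cxcr5, and without it Cxcr4 and Cxcr5 overlapped and both lay above Ccr7. Ccr4, Ccr8, Ccr10 and Cxcr1 were silent. Among lipid receptors, S1pr1, which leads lymphocytes out of tissues, had 114, 127 and 118 FPKM, above all others of its list in every library. Cnr2, a cannabinoid receptor of B cells, had 20.96, 57.7 and 62.3 FPKM, Gpr183, the oxysterol receptor EBI2, 36.5, 40.6 and 42.4 FPKM, and S1pr4 24.7, 43.2 and 45.3 FPKM, with overlapping ranges.

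Of 24 TNF receptor superfamily genes, 11 were expressed. Tnfrsf13c, the BAFF receptor that keeps B cells alive, had 65.5, 80.9 and 88.1 FPKM, above Cd40, the receptor for T cell help, at 27.5, 45.6 and 45.3 FPKM and Tnfrsf13b, the receptor TACI, at 15.6, 22.5 and 25.6 FPKM, and these 3 did not overlap. Tnfrsf17, the plasma cell receptor BCMA, stood at 0.164 ± 0.0206 FPKM. Among 12 toll-like receptor genes 7 were expressed. Tlr1 had 16.4, 30.005 and 35.1 FPKM, clear of the nucleic acid sensors Tlr7 and Tlr9 at 9.90 ± 1.91 FPKM and 9.62 ± 4.11 FPKM, and Tlr5, the flagellin receptor, was lowest at 0.0813 ± 0.0408 FPKM.

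Cytokine receptor chains and their relays were largely on, with 19 of 23 chains and 11 of 11 JAK and STAT genes expressed. The common gamma chain gene Il2rg had 28.9, 62.8 and 77.6 FPKM, Il4ra, the IL-4 receptor, 26.4, 53.3 and 54.3 FPKM and Il10ra 21.8, 46.3 and 49.2 FPKM. Jak1 led the JAK genes at 60.1 ± 7.91 FPKM and Jak3, the partner of the common gamma chain, was lowest at 5.74 ± 2.21 FPKM. Stat6, the relay of IL-4, had 28.7, 49.7 and 48.3 FPKM. In the Ms4a family Ms4a1, the gene of CD20, had 563, 542 and 612 FPKM and carried 87.6 ± 2.16% of the family's summed FPKM. It was clear of the next, Ms4a4c, at 42.5, 58.03 and 70.5 FPKM, and 5 of 16 members were silent.

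Adhesion and surface regulators were mixed. Of 26 integrin genes 12 were expressed and 7 silent. Itgb7 had 22.7, 49.4 and 49.1 FPKM, Itgb2 28.5, 36.5 and 34.6 FPKM and Itga4 14.9, 19.7 and 23.4 FPKM, and the chains that pair with them, Itgal and Itgb1, averaged 10.2 FPKM and 14.5 FPKM. All 9 SLAM family genes were expressed, led by Cd48 at 65.7 ± 5.74 FPKM and Ly9 at 42.2 ± 7.19 FPKM. Among Siglecs and Fc receptor-like genes, Fcrla had 125 ± 13.5 FPKM, Fcrl1 78.2 ± 16.9 FPKM, Fcer2a, the low-affinity IgE receptor CD23, 77.1 ± 19.4 FPKM and Siglecg 38.04 ± 9.84 FPKM. All 8 Gimap GTPase genes, which act in lymphocyte survival, were expressed, and Gimap6 led in every library with 150.4, 252 and 257 FPKM.

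**Figure D3:**
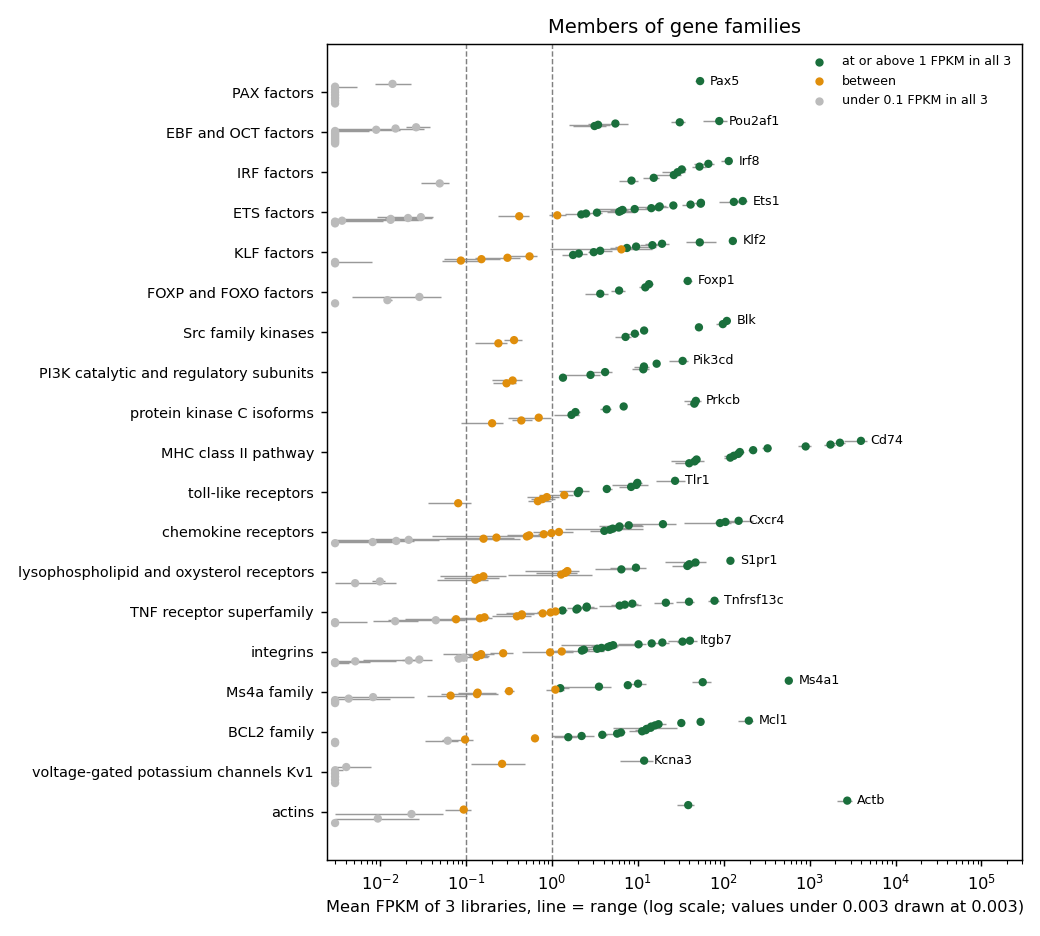
Mean FPKM of each member (point) of 19 families, picked after their values had been seen, on a log axis, with a line over the range of the 3 libraries, dark green for members at or above 1 FPKM in all 3 libraries, grey for those under 0.1 FPKM in all 3 and orange between. The most abundant member is named. Pax5, Kcna3 and Actb stand apart from the other members of their families, whereas the 13 class II pathway genes are all green.

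Transcription factor families differed in how many members were on. Pax5 (chromosome 4, 44531506 to 44710440), which commits cells to the B lineage, had 46.6, 55.7 and 57.2 FPKM and the other 8 PAX genes were silent, so Pax5 carried 99.97% of the family's summed FPKM. Ebf1, its partner factor, had 24.5, 32.8 and 35.1 FPKM and Ebf2, Ebf3 and Ebf4 were silent. The octamer coactivator gene Pou2af1 had 56.7, 108 and 102 FPKM, above the octamer factor genes Pou2f2 at 2.66, 6.07 and 7.74 FPKM and Pou2f1 at 1.77, 3.43 and 4.22 FPKM, and 11 POU genes were silent. By contrast 8 of 9 IRF genes were expressed, with Irf8 at 92.2, 126 and 125 FPKM, Irf5 at 66.3 ± 17.9 FPKM and Irf4 at 32.6 ± 3.39 FPKM. Of 26 ETS genes 16 were expressed, with Ets1 at 129.8, 181 and 189 FPKM and Spib at 88.8, 147 and 158 FPKM, whose ranges overlapped, and Sfpi1, the factor PU.1, at 32.4, 45.6 and 45.4 FPKM, clear of both.

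Quiescence factors and their relatives came next. Klf2, which restrains lymphocyte activation, had 128, 133 and 122 FPKM, the highest of 17 KLF genes in every library, and Klf6 81.6, 40.4 and 36.1 FPKM. Of the FOXP and FOXO genes, Foxp1 had 33.4, 38.3 and 42.7 FPKM, above Foxo3 at 13.1, 15.01 and 12.4 FPKM and Foxo1 at 10.2, 12.7 and 13.8 FPKM, which overlapped, while Foxp2 and Foxp3 were silent. Id3, an inhibitor of E proteins, had 34.6, 60.01 and 63.3 FPKM, and the E protein genes Tcf3, Tcf12 and Tcf4 had 29.9 ± 5.83 FPKM, 13.8 ± 0.981 FPKM and 10.2 ± 2.95 FPKM. Ikzf1 and Ikzf3, the factors Ikaros and Aiolos, had 50.6 ± 9.16 FPKM and 36.7 ± 8.08 FPKM, and Ikzf4 was silent. All 5 NF-kB subunit genes were expressed, from Nfkb1 at 47.9 ± 11.9 FPKM to Rel at 15.4 ± 1.53 FPKM.

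Genes of other B cell stages were mixed. The recombinase genes Rag1 and Rag2 averaged 0.343 FPKM and 0.0253 FPKM, and the surrogate light chain genes Vpreb1, Vpreb2 and Igll1 were silent, whereas their relative Vpreb3 had 85.2, 86.6 and 96.5 FPKM. Prdm1, the plasma cell regulator BLIMP1, had 0.618 ± 0.160 FPKM and Sdc1, the plasma cell marker CD138, 5.32 ± 1.19 FPKM. Bcl6, the germinal centre repressor, had 6.98, 20.9 and 24.3 FPKM, and Xbp1, a factor of secretory cells, 17.8, 33.9 and 35.3 FPKM. Of 6 plasma cell and germinal centre regulator genes 4 were expressed.

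Survival and cell cycle genes followed. Mcl1, a survival protein, had 148, 219 and 222 FPKM, the highest of 20 BCL2 family genes in every library, while Bcl2 had 11.8, 15.3 and 15.9 FPKM and Bcl2l1, the survival protein BCL-XL, 28.5, 8.74 and 5.19 FPKM, high in library 1. Cdkn1b, the inhibitor p27 of resting cells, had 68.3, 67.9 and 64.1 FPKM, and Cdkn1a, p21, 0.567 ± 0.0440 FPKM. Ccnd3, a G1 cyclin, had 17.5, 23.98 and 19.1 FPKM, and Ccna2, a cyclin of S phase, 21.7, 6.90 and 2.48 FPKM. Ccna2 was over 3 times higher in library 1 than in library 2. Actb carried 98.6% of the actin sum, Coro1a, the leukocyte coronin, with 758, 911 and 895 FPKM, carried 90.7% of the coronin sum, and Kcna3, the lymphocyte potassium channel, carried 96.8% of the Kv1 sum at 6.18, 14.2 and 15.2 FPKM.

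Metabolic genes were moderate, with 16 of 30 glycolysis genes and glucose transporters expressed. Aldoa led with 112 ± 27.5 FPKM, and Ldha, Pkm and Slc2a1 had 53.9 ± 4.71 FPKM, 48.2 ± 8.97 FPKM and 11.01 ± 1.39 FPKM. Gapdh, which every cell uses, was listed at only 5.12, 6.33 and 5.33 FPKM, and Eno1 at 0.535, 0.218 and 1.09 FPKM. In GENCODE M21, 67 processed pseudogene transcripts matched the Gapdh coding sequence at 95% identity or more over at least 80% of its length, and 2 matched that of Eno1. Ldha also had 2 such copies and Pkm 1, so Ldha and Eno1 differed widely in level with the same number. Reads of such genes may be shared with the copies, and the sources used here do not state how shared reads were counted. All these values are therefore uncertain.

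The same holds for ribosomal protein genes, which every cell needs in like amounts. Of 83 such genes 70 were expressed, but their means were far apart, with 30 at 100 FPKM or more and 21 under 10 FPKM. The 9 genes with no pseudogene copy by that rule had a median of 142.6 FPKM, the 34 with 1 to 4 copies 75.3 FPKM and the 40 with 5 or more copies 27.1 FPKM. The classes overlapped, as 10 of the 40 genes with 5 or more copies were at 100 FPKM or more. In the glycolysis genes the order was the other way, with medians of 1.15 FPKM for 23 genes with 0 copies, 2.28 FPKM for 6 with 1 to 4, and 1 gene, Gapdh, with more. Rpl41, Rpl8 and Rps3 had 0 copies by that rule and stood at 736 to 1867 FPKM. The search used the longest annotated coding sequence of each gene, 138 bases for Rpl41. Copies of a shorter form could be missed, so the counts and the classes above are uncertain. Rpl23a, with 19 copies, had 0.115 ± 0.0961 FPKM. Rpl29, with 26 copies, had 0.267, 94.6 and 0.0710 FPKM, so that library 2 alone carried it. Across the 83 genes the number of copies and the mean level had a Spearman coefficient of -0.30, and genes are not independent replicates. The part of shared reads in these levels was not tested, and the list mixes genes with testis or muscle copies of their own, such as Rpl10l and Rpl3l, both silent.

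Families used in other tissues were mostly silent. Of 1091 olfactory receptor genes 1089 were silent, as were 331 of 332 vomeronasal receptor genes, 46 of 50 keratin genes, 36 of 39 Hox genes, 30 of 44 collagen genes and 82 of 96 cytochrome P450 genes, beside 41.6% of all protein-coding genes. Of the others in these families, none of the keratin, Hox and collagen genes and 9 of the cytochrome P450 genes were expressed, and the rest stood between the limits. Olfr433 had 0.190, 0.207 and 0.311 FPKM, Hoxb4, a Hox gene of blood stem cells, 0.321, 0.880 and 0.925 FPKM, Krt222, a keratin-related gene, 0.833, 1.19 and 0.794 FPKM, and Col6a4, a type VI collagen chain, 0.811, 1.58 and 2.89 FPKM. Cyp4f18, which acts on leukotrienes, had 31.5, 48.1 and 46.9 FPKM and carried 53.8 ± 1.53% of the cytochrome P450 sum, clear of the next, Cyp51, of sterol synthesis, at 5.02, 8.51 and 8.40 FPKM. Other families were mixed. Of 10 voltage-gated sodium channel genes 8 were silent and Scn4a, the channel of skeletal muscle, had 1.98, 3.18 and 3.26 FPKM. Of 34 interleukin genes 5 were expressed and Il16 led with 25.98, 65.9 and 66.7 FPKM. Of 357 Zfp zinc finger genes 210 were expressed, with Zfp36, which destabilises AU-rich messages, at 65.9, 113 and 126 FPKM.

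Promoter composition followed the classes of level. A CpG ratio, observed over expected from base composition, of at least 0.6 was found in 80.05% of 7017 promoters of expressed genes, 51.9% of 2432 between and 20.5% of 6222 silent ones, against 52.1% of all 15671. Median ratios were 0.81, 0.61 and 0.26. The most abundant genes did not continue the trend: the share was 77.8% at means of 1 to 10 FPKM, 81.5% at 10 to 100 FPKM and 66.3% in the 181 promoters at 100 FPKM or more. Only 1 of the 10 class II pathway promoters passed 0.6, that of H2-DMa, although all 10 genes were expressed. Of 916 olfactory receptor promoters 3 passed.

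Letters were counted too, after the promoters had been seen. TATAAA and the pyrimidine start were looked for at fixed places, and CCAAT, the ETS letters and the octamer anywhere in the 300 bases. TATAAA from 45 to 16 bases before the start stood in 1.15% of expressed and 5.58% of silent promoters, and in 15 of 55 histone promoters (27.3%) against 3.02% of all. The letters CCAAT, on either strand and also held by the Y box letters on their other strand, stood in 39.6% of expressed and 38.5% of silent promoters, and in 85.5% of the histone promoters against 38.9% of all. The ETS letters CCGGAAGT, which hold a CpG, stood on either strand in 10.8% of expressed and 1.14% of silent promoters. The octamer ATGCAAAT, on either strand, stood in 13 of 55 histone promoters (23.6%) against 1.73% of all. It stood in 1.52% of expressed and 2.04% of silent promoters, and in 0 of 5 promoters of the B cell markers and 0 of 10 of the class II pathway. Among genes with a mean of at least 50 FPKM the promoters of Vpreb3, Blnk and Ms4a4c held it. So did those of Tmsb4x, Srgn, H3f3b, Sash3, Mta2, Ypel3 and several histone genes. A start at C followed by 4 pyrimidines, as in messages of the translation machinery, stood in 12 of 52 expressed ribosomal promoters (23.1%) against 2.18% of all. Each match is a description of the reference and not of binding.

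**Figure D4:**
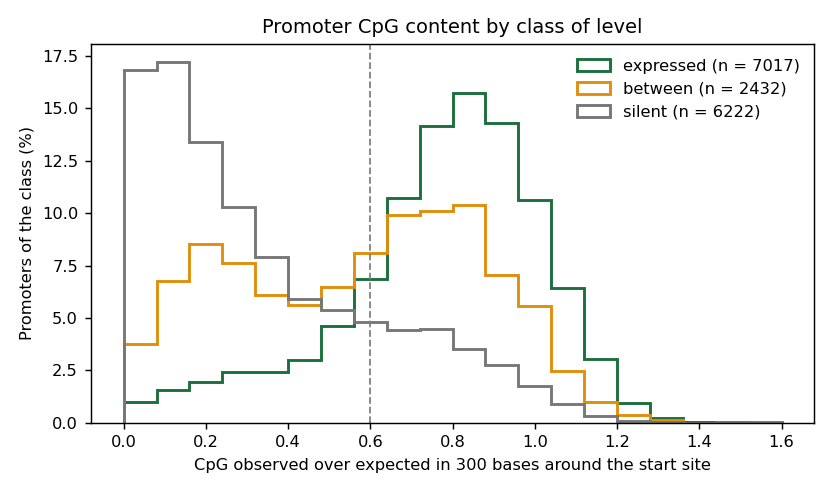
Share of promoters (vertical axis, percent of the class) by CpG ratio, observed over expected, in 300 bases around the start (horizontal axis) for expressed, between and silent genes. The dashed line stands at 0.6. Promoters of expressed genes peak above it and those of silent genes below.

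The 3 libraries did not vary alike. Over 9377 genes with a mean of at least 1 FPKM, the ratio of the highest to the lowest library on FPKM + 0.5 had a median of 1.44 and lay between 1.11 and 2.18 at the 10th and 90th percentile, and the median coefficient of variation was 20.6%. Library 1 was the lowest of the 3 for 7126 genes. Its log2(FPKM + 0.5) was lower than that of libraries 2 and 3 by a median of -0.40 and -0.38, while library 2 differed from library 3 by a median of 0.02. Library 1 was at least 2-fold above both others for 361 genes (3.85%) and below both for 534 (5.69%). Library 2 stood so for 4 genes above (0.0427%) and 2 below (0.0213%), and library 3 for 2 above (0.0213%) and 86 below (0.917%). Libraries 2 and 3 ran on lane 5 and library 1 alone on lane 7, per the description labels, so lane and library cannot be told apart. Within lane 5 the median ratio was 1.06. Relative to the shift of all genes, a comparison added after seeing the data, library 1 was at least 2-fold above both others for 573 genes and below both for 88.

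Red cell and histone genes set library 1 apart. All 10 erythroid markers were at least 2-fold above both others in it, and 4 were at least 2-fold lower in library 3 than in both others. Aqp1, the red cell water channel, had 105, 14.8 and 3.05 FPKM and Rhd, a blood group gene, 116, 17.8 and 4.003 FPKM. Library 1 was the highest and library 3 the lowest for both. Hba-a1 had 713, 0.0280 and 0.0187 FPKM while its near-identical neighbour Hba-a2 had 3012, 524 and 479.7 FPKM, so the split between them is uncertain. Of 56 replication-dependent histone genes at a mean of 1 FPKM or more, 26 were at least 2-fold above both others in library 1, 55 were highest there, and 14 were at least 2-fold lower in library 3 than in both others. Their summed level was 15590.4, 7943 and 5415 FPKM, or 7.996%, 3.84% and 2.71% of the protein-coding sum. Hist1h4f had 1063, 331 and 169.7 FPKM. Messages of these histones mostly end without a poly(A) tail. The labels call the RNA total. The erythroid sum and Ccna2 were highest in the same library, and their part in the histone levels was not tested.

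Some macrophage markers were also high in library 1. Of 8 macrophage markers at a mean of 1 FPKM or more, 4 were at least 2-fold above both others, among them Vcam1 with 57.9, 13.9 and 7.18 FPKM and Emr1, the gene of F4/80, with 22.7, 6.91 and 5.60 FPKM. Of 11 cathepsin genes at that level, 3 were at least 2-fold above both others in library 1, among them the protease genes Ctsb with 86.4, 31.7 and 25.2 FPKM and Ctse with 78.3, 17.8 and 6.71 FPKM, and 5 were lowest there, among them Ctss with 278, 343 and 351 FPKM. Atf3, a stress-induced factor, had 42.9, 1.84 and 1.06 FPKM, and Plk2, a kinase induced by stress, 53.8, 3.20 and 2.27 FPKM. Atf3, Plk2, Aqp1 and Rhd were among the 10 most variable genes with a mean of at least 10 FPKM.

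Other lists, picked after their values had been seen, went the other way. Relative to the shift of all genes, library 1 stood at a median of 0.56 times libraries 2 and 3 for 9 lipid receptor genes, 0.61 for 8 Gimap genes, 0.62 for 6 T cell markers, 0.62 for 5 NF-kB subunit genes and 0.73 for 12 genes of NFAT and calcium entry. The 10 B cell markers stood at a median of 0.94 and the 13 class II genes at 1.01, near that of all genes. Single members differed. Before that shift was taken out, 1 gene of each list, Cr2 and Ciita, was at least 2-fold below both others in library 1. Icosl, a costimulatory ligand, had 15.1, 64.5 and 67.4 FPKM, and Il9r, the IL-9 receptor, 3.11, 15.7 and 12.9 FPKM. Rpl30, a ribosomal protein gene, had 3.22, 25.9 and 23.3 FPKM.

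**Figure D5:**
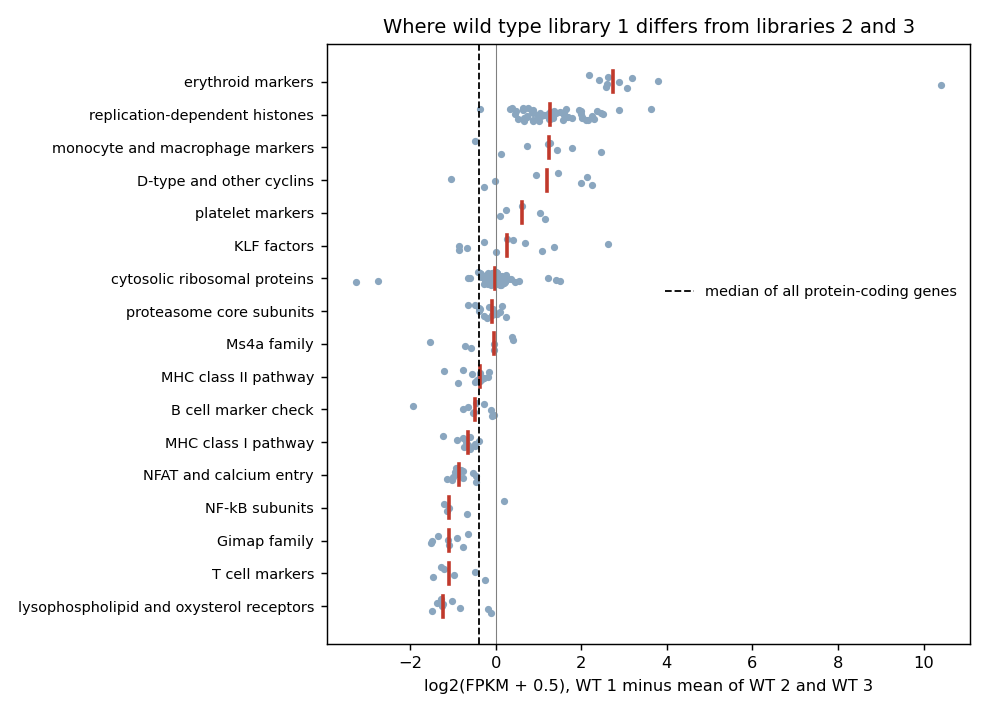
For 17 gene lists, picked after their values had been seen, each point is 1 gene with a mean of at least 1 FPKM, placed by log2(FPKM + 0.5) in library 1 minus the mean of libraries 2 and 3, and the red bar is the list's median. The dashed line is the median of all protein-coding genes, at -0.39. Erythroid markers and histones lie to its right, and lipid receptors, T cell markers and Gimap genes to its left.

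Some genes hardly varied. Among 611 genes with a mean of at least 50 FPKM, Uqcrc2, a core protein of respiratory complex III, had 51.2, 51.7 and 51.4 FPKM, Lrmp, a lymphoid membrane protein, 53.4, 53.9 and 53.9 FPKM and Ndufa3, a complex I subunit, 148, 148 and 149 FPKM. Their coefficients of variation were 0.530%, 0.532% and 0.568%. The other 7 of the 10 steadiest were Uqcrfs1, Myeov2, Rpl4, Cct2, Pnrc1, Lsp1 and Vapa. Since most genes were lower in library 1, a level that held steady there lay above the shift of all genes.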

How the data were processed

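Per the file headers, the deposited table holds FPKM by gene and library, each with an estimation status. TopHat2, Cufflinks and Cuffdiff are named without versions, and mm9 as the build, per the submitters' processing notes, but 99.4% of 21317 symbols overlapped their GRCm38 gene, so positions are given in GRCm38 as the table has them. Rows without OK in all 3 wild type libraries, 325 in all, were left out, and 27 symbols turned into date numbers are not named. Protein-coding genes were taken from RefSeq by symbol. Ratios use FPKM + 0.5. No test between groups was made. Named genes were the 25 most abundant, members of the gene lists, the leading members of families found by symbol, and the most and least variable genes, without predicted genes and receptor segments, and some that meet this rule are not reported here. Members and lists were chosen with earlier results of these data known. The symbol patterns of 5 families were corrected once the rows were seen, and the histone group, promoter letters and pseudogene search were chosen after values had been seen. Pseudogene copies of the longest annotated coding sequence of each gene were found with BLAST. Calls of expressed genes and of libraries at least 2-fold from both others were checked on simulated levels with known answers. Those levels had less spread than these data, and the other calculations were not checked in this way. Histone, ribosomal, small RNA, protease and promoter genes named outside the rule were chosen after their values had been seen. Python 3.11.15, pandas 2.3.3 and numpy 2.4.6 were used, and figures were drawn with matplotlib 3.10.9.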

Additional observations from a re-analysis of the deposited data

How the results depend on the processing

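No paired analysis was possible because only 1 group of 3 libraries was described. The count of expressed genes lay between 7585 and 10489 over all alternatives (lower and higher thresholds, the mean of the libraries, other scaling, repeated symbols, no status filter), and that of silent genes between 6795 and 9205, all within 1.5 times of those reported. The median ratio between libraries was 1.14 with no filter on low values, and without 1 library each it lay between 1.06 and 1.399, the lowest without library 1. Ordered neighbours in families were 108 to 237 without 1 library each, 237 without library 1; the test of non-overlap is easier to pass with fewer libraries. The share of expressed promoters past a CpG ratio of 0.6 was 78.4% at a threshold of 0.5 FPKM, 81.0% at 2 FPKM, and 79.3% to 79.98% without 1 library each, settings chosen after seeing the data. The share of the 25 most abundant genes kept within 1 SD. Of 372 family counts under alternatives, 13 moved by over 1.5 times, among them toll-like receptors (11 expressed members at a threshold of 0.5 FPKM) and TNF receptors (7 at 2 FPKM). The mean levels of the 25 most abundant genes moved by less than 1 SD when libraries were rescaled to equal sums over protein-coding genes. Values of FPKM carry no counts, so counting error per gene is unknown.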

Other observations

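Several gene groups outside the families above were also present. Of 23 cathepsin genes 10 were expressed, and after Ctss stood Ctsz with 110.1, 137 and 129 FPKM and Ctsh with 118, 107 and 109 FPKM, which overlapped. Of 17 S100 genes 8 were expressed, and S100a10, a partner of annexin A2, had 159, 165 and 177 FPKM and carried 59.7% of the family's summed FPKM. Of 10 caspase genes 8 were expressed, with Casp8, of death receptors, at 11.4, 18.4 and 19.8 FPKM and Casp1, an inflammatory caspase, at 9.74, 17.9 and 21.1 FPKM, while Casp12 and Casp14 were silent. Among 367 solute carrier genes 138 were expressed, and Slc25a5, the mitochondrial ADP/ATP carrier, had 119, 123 and 108 FPKM. Slc4a1, the anion exchanger of red cells, had 222, 55.4 and 15.8 FPKM, above Slc25a5 in library 1 alone.

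DNA methylation genes included Dnmt1, the maintenance enzyme, at 8.93, 17.1 and 15.99 FPKM, Tet3 at 2.39, 4.75 and 5.21 FPKM and Tet2 at 2.17, 3.10 and 3.39 FPKM, and Tet1 averaged 0.167 FPKM. Apobec3, which restricts retroviruses, had 35.98, 62.1 and 70.3 FPKM and Apobec1 12.3, 19.98 and 19.1 FPKM, and Apobec2 and Apobec4 were silent. Of the MYC network, Myc had 16.8, 19.3 and 17.4 FPKM and its antagonist gene Mxd4 17.6, 30.4 and 32.8 FPKM, while Mycn averaged 0.0551 FPKM. Tubulin genes were led by Tubb5 with 112, 160.2 and 146 FPKM, and Tubb1, the platelet form, had 13.2, 6.20 and 5.23 FPKM. Of 10 genes of B-1 and marginal zone cells 7 were expressed, beside 42.7% of all protein-coding genes, and 3 lay between. The median of their means was 9.80 FPKM. Plac8 had 438, 353 and 334 FPKM and carried 63.5% of their summed FPKM. Mzb1 had 113, 137 and 123 FPKM and Dtx1, a Notch target of marginal zone cells, 15.99, 53.1 and 46.6 FPKM, which was low in library 1.

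Some genes differed between libraries 2 and 3 as well. Laptm5, a lysosomal protein of lymphocytes, had 33.4, 79.4 and 113 FPKM, Rplp0, a ribosomal stalk protein, 125, 164 and 236 FPKM, and Pde3b, a phosphodiesterase, 4.40, 24.1 and 15.6 FPKM, each lowest in library 1. They are 3 of 3746 genes with a mean of at least 10 FPKM and were named after their values had been seen.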
